A study of Mus musculus with 6 samples.

Results

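The genes described here are those carried by the mitochondrial genome, taken as every row of the deposited gene table whose symbol starts with mt-. They numbered 15 of 26469 rows, namely 13 protein-coding genes and 2 ribosomal RNA genes. By the strand their RNA is read from in textbook usage, 14 belong to the heavy-strand transcript and 1, mt-Nd6, to the light-strand transcript. The reference annotation lists 37 mitochondrial genes, 22 of them transfer RNA genes. None of those 22 matched a row by symbol or by identifier, so the transfer RNA class was not analysed here.

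RNA was measured in 6 libraries of mouse splenic CD4 T cells. The 3 mutant libraries came from Sf3b1K700E/fl /Cd4Cre mice, annotated as having the Sf3b1 mutation, and the 3 control libraries from Sf3b1K700E/fl mice without Cd4Cre, annotated as WT. Both groups therefore carried the conditional allele, which encodes a cancer-associated form of the splicing factor SF3B1. In the mutant mice the Cre recombinase is driven by Cd4, whose promoter is active from a thymic stage of T cell development onward, so every T cell made through that stage may carry the recombined allele. Naive CD4+ cells of both groups were cultured towards regulatory T cells for 36 h with TGFβ at 5 ng/ml, antibodies to CD3 and CD28, and antibodies blocking IL-4 and IFNγ. The sources used here give neither the age of the mice nor whether each library came from a separate animal. The p-values therefore speak of the spread among these libraries alone, and that spread may be technical.

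Mammalian mitochondrial DNA is a compact circle without introns. Each strand is transcribed as a long precursor, and most messenger and ribosomal RNAs are released when the transfer RNAs that lie between them are cut out. The protein-coding genes give subunits of respiratory complexes I, III and IV and of the ATP synthase, complex V; the ribosomal RNAs build the mitochondrial ribosome that translates them. Activated T cells expand their mitochondria, and regulatory T cells are known for their use of oxidative metabolism.

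Within each library the members share features that bear on how their reads can be counted. The gene mt-Atp8 is shown whole, with its last 43 bases in capitals, because those bases are also the start of mt-Atp6 and both genes lie on 1 RNA. All sequences come from the GENCODE M21 annotation of GRCm38 and run 5′ to 3′.
mt-Atp8: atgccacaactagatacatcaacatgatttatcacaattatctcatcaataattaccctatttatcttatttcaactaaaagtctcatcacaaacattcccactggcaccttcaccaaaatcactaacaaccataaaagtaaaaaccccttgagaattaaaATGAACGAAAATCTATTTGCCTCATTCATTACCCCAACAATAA
Likewise mt-Nd4l and mt-Nd4 share 7 bases on the same strand. The ends of mt-Nd5 and mt-Nd6 share 14 bases on opposite strands. Whether the counting used strand is not stated in the sources at hand, and reads antisense to a gene cannot be told apart from its own.

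The next sequences are the first 60 bases of the light-strand gene mt-Nd6, of its heavy-strand neighbour mt-Nd5 and of the most abundant member mt-Co1, with guanines in capitals. They are shown because the 2 transcripts differ in base composition along their whole length.
mt-Nd6: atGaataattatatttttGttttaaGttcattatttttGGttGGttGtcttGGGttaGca
mt-Nd5: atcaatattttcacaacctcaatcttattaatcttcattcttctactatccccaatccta
mt-Co1: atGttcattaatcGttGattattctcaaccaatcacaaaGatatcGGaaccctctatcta
These stretches hold 12 guanines in mt-Nd6, 0 in mt-Nd5 and 6 in mt-Co1. Over the whole gene, mt-Nd6 is 28.1% guanine and 6.0% cytosine. The 12 heavy-strand messenger RNAs have from 5.9% guanine in mt-Atp8 to 16.1% in mt-Co1, and at least 22.1% cytosine.

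Many members also have copies of their sequence in the nuclear genome, and 7 pairs matched at 99% identity or more over at least 100 bases. All 7 copies lie on chromosome 1 of GRCm38. For mt-Co2, mt-Atp6, mt-Co3 and mt-Nd4l the match was 100% over 681, 678, 783 and 294 bases. The mt-Nd3 copy Gm28438 had 1 mismatch in 345 bases, T3C, and the mt-Co1 copy Gm29216, which covers 31.3% of the gene, had A1066T, with positions counted from 1 at the first base of the mitochondrial gene. The stretches around these differences are shown, with the differing base in capitals. A read within the matched stretch that misses this base fits both sequences equally.
mt-Nd3: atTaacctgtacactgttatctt
Gm28438: atCaacctgtacactgttatctt
mt-Co1: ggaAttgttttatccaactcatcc
Gm29216: ggaTttgttttatccaactcatcc
The mt-Nd4 copy Gm28439 matched 876 bases, or 63.6% of the gene, at 100%. No such copy was found for 6 of the 13 protein-coding genes, namely mt-Nd1, mt-Nd2, mt-Atp8, mt-Nd5, mt-Nd6 and mt-Cytb. The search covered annotated transcripts of the counted genes alone, so a copy without such annotation would be missed.

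For mt-Atp6 and mt-Co3, the deposited counts were divided almost evenly between the mitochondrial gene and its copy. For mt-Atp6, Gm10925 held 0.992, 0.999 and 0.995 counts per count of the gene in mutant libraries, and 0.995, 0.995 and 0.998 in control libraries. For mt-Co3, Gm28437 held 0.998, 0.997 and 0.999 in mutant libraries, and 0.979, 0.997 and 0.998 in control libraries. These ratios lay near 1 in every library, so the counts of these genes and of their copies were nearly equal.
For mt-Co2, Gm28661 held 0.997, 1.047 and 1.019 in mutant libraries, against 1.166, 1.068 and 1.219 in control libraries. For mt-Nd3, Gm28438 held 1.026, 1.033 and 0.912 in mutant libraries, against 1.054, 1.093 and 1.135 in control libraries. In these 2 of the 7 pairs, picked out after their values were seen, the ratio was lower in all 3 mutant libraries than in any control library. A lack of overlap in either direction was seen for 14.1% of all genes tested. For mt-Nd4l, Gm10222 held 0.728, 0.990 and 0.680 in mutant libraries, and 0.801, 0.945 and 0.932 in control libraries, and the groups overlapped.
Where the match covered part of the gene, the copies took few counts. Gm28439 held 0.016 to 0.032 counts per mt-Nd4 count in mutant libraries and 0.016 to 0.065 in control libraries, and Gm29216 held 0.002 per mt-Co1 count in all 6 libraries. Together the 7 copies took 0.423%, 0.420% and 0.407% of the counts in mutant libraries and 0.370%, 0.401% and 0.416% in control libraries. Values are given as deposited, and with the copies added where that changes a statement.

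**Figure D1:**
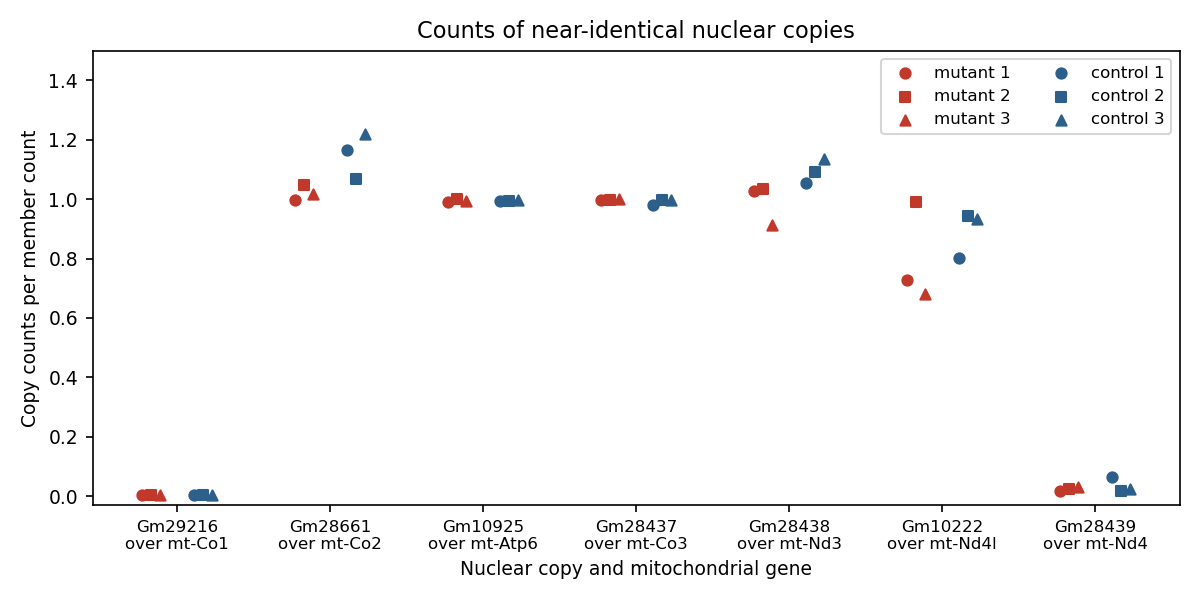
Counts of each near-identical nuclear copy divided by those of its mitochondrial gene, per library (vertical axis, a ratio of counts), for the 7 pairs along the horizontal axis, with mutant libraries in red left of control libraries in blue. The full-length copies of mt-Co2, mt-Atp6, mt-Co3, mt-Nd3 and mt-Nd4l sit between 0.680 and 1.219, and the partial copies of mt-Co1 and mt-Nd4 at 0.065 or below.

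Totals ran from 34524411 to 36867281 counts in mutant libraries and from 33633157 to 43928682 in control libraries, and all 15 members passed the filter on low counts among 18323 genes tested. The T cell markers Cd3d, Cd3e, Cd3g, Cd4, Cd5 and Thy1 summed to between 1617 and 2169 CPM, counts scaled to a common library size, in mutant libraries and between 1392 and 2032 CPM in control libraries, and none was at 0. Of B cell markers, Ms4a1 had 0, 7.67 and 0.76 CPM in mutant libraries and 0.319, 0.0491 and 0.0275 CPM in control libraries, and Cd79a had 1.84, 5.15 and 2.20 CPM in mutant libraries and 0.928, 0.466 and 0.825 CPM in control libraries. Mutant 2 was highest for both, and for Pax5 and Cd79b as well. Summed markers of CD8 T cells were 6.55, 17.3 and 9.26 CPM in mutant libraries and 40.3, 8.64 and 5.81 CPM in control libraries, highest in control 1. Those of myeloid, NK, and erythroid and platelet cells stayed at or below 3.95 CPM in every library. The nuclear retained RNAs Malat1 and Neat1 summed to 5930, 5196 and 4797 CPM in mutant libraries, against 4313, 2422 and 3939 CPM in control libraries. Small structural RNA genes took 1.72%, 2.52% and 1.59% of the counts in mutant libraries and 2.76%, 2.52% and 2.42% in control libraries. With totals and scaling taken from nuclear genes without the small structural RNA genes, 0 members passed the test and the mean log2 fold change of the protein-coding genes was -0.02, against -0.04 as reported here. The part of the marker genes and of the nuclear retained RNAs in the results that follow was not tested.

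The mitochondrial genes together took a like share of the counts in mutant and control cells. They held 1.90%, 2.35% and 2.35% of the counts in mutant libraries 1 to 3, and 1.99%, 2.18% and 2.23% in control libraries 1 to 3. The means were 2.20 ± 0.26% in mutant cells and 2.13 ± 0.13% in control cells (SD, n = 3 each), the groups overlapped, and mutant 1 was the lowest of the 6 libraries. With the nuclear copies added, the means were 2.62 ± 0.26% in mutant cells and 2.53 ± 0.15% in control cells. In bulk samples such as these, fewer cells of a type and less RNA per cell cannot be told apart.

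No mitochondrial gene passed the test between mutant and control cells. In edgeR's quasi-likelihood test, 0 of the 15 had a Benjamini-Hochberg adjusted p under 0.05, where 0% of all 18323 genes tested passed. Their adjusted p-values in that test ran from 0.735 to 0.969. At an unadjusted p under 0.05 the count of members was 0 of 15, where 1397 genes, or 7.62% of those tested, passed. In DESeq2 it was also 0 of 15 by adjusted p, where 99 of 15628 genes, or 0.633%, passed, 51 of them higher and 48 lower in mutant cells. The groups overlapped for all 15 members, whereas they did not overlap for 2579 genes, or 14.1% of those tested, 1210 of which were higher and 1369 lower in mutant cells.

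The fitted differences of the members were small and of both signs. Of the 15, 8 had a positive and 7 a negative fitted log2 fold change, from 0.37 for mt-Rnr1 to -0.29 for mt-Nd6. The mean log2 fold change was -0.04 over the 13 protein-coding genes and 0.22 over the 2 ribosomal RNA genes, beside a mean of 0.08 and a median of 0.02 over all genes tested. By strand it was 0.02 over the 14 heavy-strand genes, -0.01 over the 12 heavy-strand messenger RNAs and -0.29 for the light-strand gene. Without mutant 1, 14 of the 15 were higher and 1, mt-Cytb, was lower in mutant cells. The count of members passing the test remained 0 without mutant 1, where the means became 0.12 for protein-coding genes, 0.41 for ribosomal RNA genes, 0.16 for the heavy strand and 0.09 for the light strand. Without mutant 3, 5 members were higher and 10 lower in mutant cells, and the means were -0.15 for protein-coding genes, -0.00675 for ribosomal RNA genes, -0.09 for the heavy strand and -0.65 for the light strand. Without control 1, 4 were higher and 11 lower, and the protein-coding mean was -0.09 and the heavy-strand mean -0.04. Each sign of a class mean thus changed when at least 1 of the libraries was left out.

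**Figure D2:**
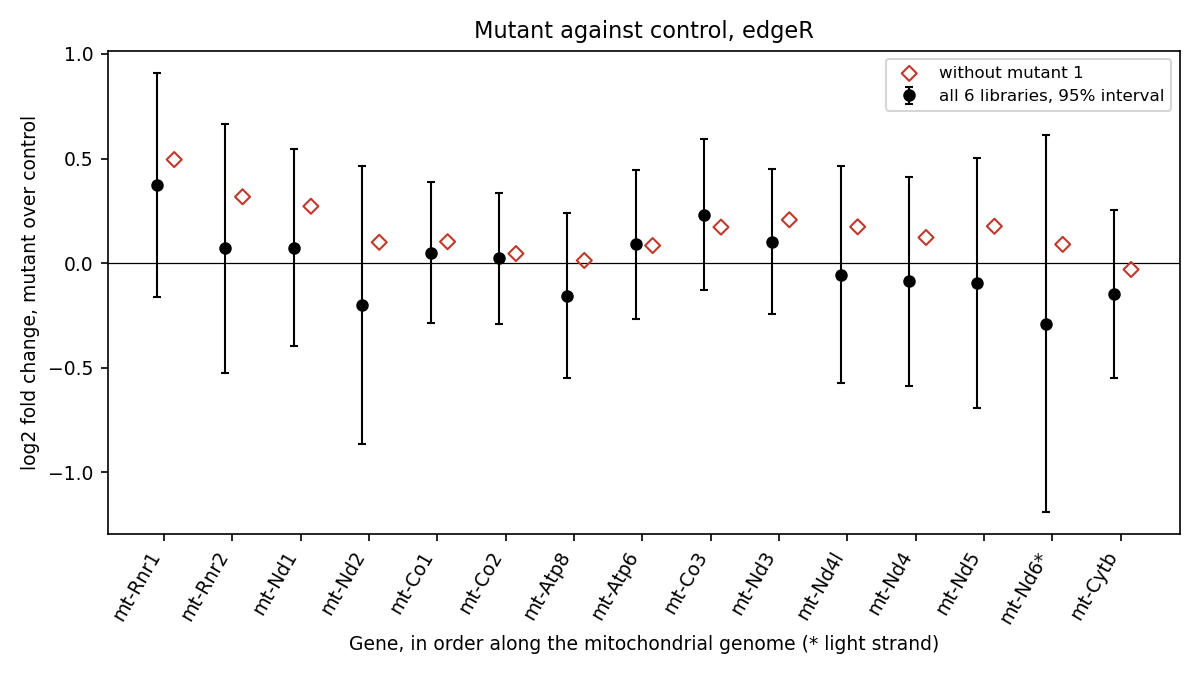
Fitted log2 fold change of mutant over control cells (vertical axis) for the 15 genes in genome order (horizontal axis), as black points with 95% intervals from edgeR over all 6 libraries, and as open diamonds without mutant 1. Every interval includes 0, the widest is that of mt-Nd6 from -1.19 to 0.61, and 14 diamonds lie above 0.

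The ribosomal RNAs were the least abundant class, in libraries whose ribosomal RNA had been depleted with a RiboErase kit, per the labels. Kits of this kind are designed to remove mitochondrial as well as cytoplasmic ribosomal RNA, so the values show what was left after depletion. In mutant libraries the gene mt-Rnr1, which encodes the RNA of the small mitochondrial ribosomal subunit, had 228, 253 and 341 counts. Its counts in control libraries were 196, 267 and 196. In CPM its levels were 6.44, 7.16 and 9.26 in mutant libraries, against 5.69, 6.55 and 5.39 in control libraries. Mutant 3 was highest, and mutant 1 lay just below control 2, so the groups overlapped. The fitted log2 difference of 0.37 ± 0.23 (SE), with a 95% interval from -0.16 to 0.91, had an adjusted p of 0.735 in edgeR's quasi-likelihood test.
For mt-Rnr2, which encodes the large-subunit RNA, levels were 20.7, 31.5 and 43.2 CPM in mutant libraries, against 33.5, 30.3 and 27.1 CPM in control libraries. Mutant libraries held both the lowest and the highest value. The log2 fold change of mt-Rnr2 was 0.07 ± 0.26 (SE), between -0.52 and 0.67 at its 95% limits, with an adjusted p of 0.947 in edgeR, and it ran from -0.22 to 0.32 when 1 library was left out at a time.

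Relative to the messenger RNAs, the ribosomal RNAs varied within each group as much as between them. Their counts per 1000 protein-coding counts were 1.47, 1.68 and 2.23 in mutant libraries, and 2.02, 1.57 and 1.47 in control libraries. The means were 1.79 ± 0.40 in mutant cells and 1.69 ± 0.29 in control cells (SD, n = 3 each). The balance of the 2 ribosomal RNAs, which are made in a like amount from a shared precursor, was also measured per kilobase of gene length. Counts per kilobase of mt-Rnr2 over those of mt-Rnr1 were 1.94, 2.66 and 2.82 in mutant libraries and 3.55, 2.79 and 3.03 in control libraries. Mutant 1 was lowest and control 1 highest, and mutant 3 exceeded control 2. What depletion contributed to these ratios was not tested.

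**Figure D3:**
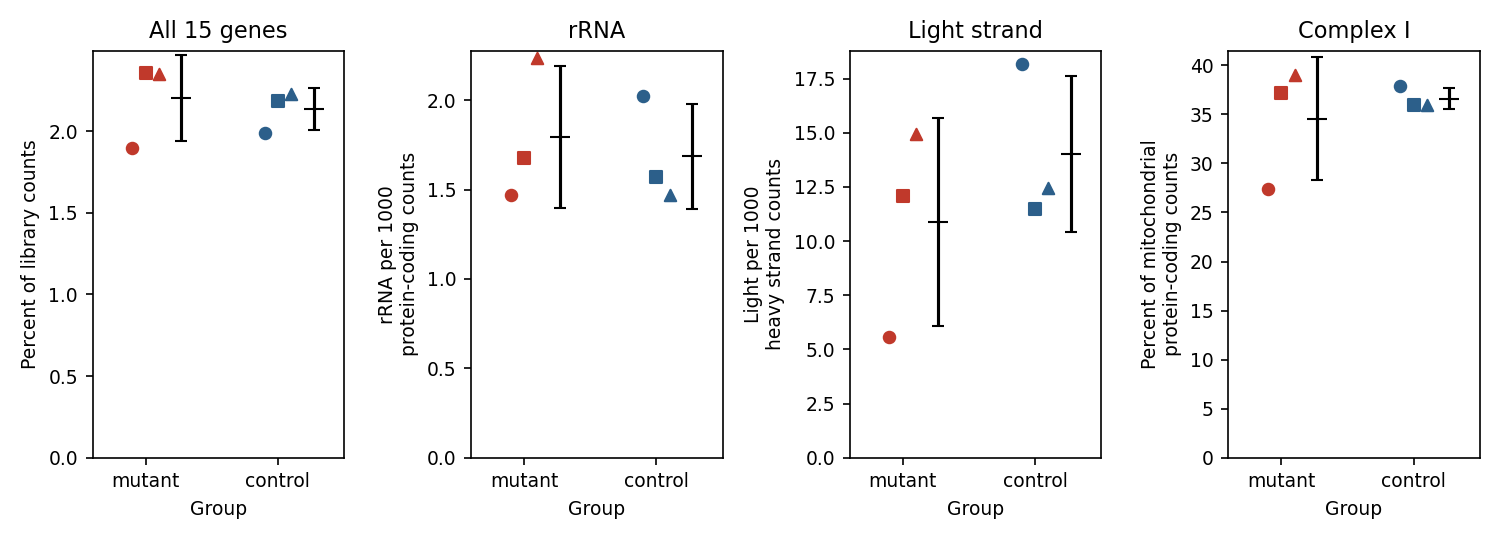
From left to right, the share of library counts in all 15 genes (percent), ribosomal RNA counts per 1000 protein-coding counts, light-strand counts per 1000 heavy-strand counts, and the share of complex I genes in the mitochondrial protein-coding counts (percent), with mutant libraries in red left of control libraries in blue (circle, square and triangle for replicates 1, 2 and 3). Bars give the mean ± SD of 3 libraries; the groups overlap in each panel, and mutant 1 is lowest for all 15 genes, the light strand and complex I.

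The light-strand gene mt-Nd6 encodes a membrane subunit of complex I, and it had the widest spread of all members in mutant cells. Its levels were 102, 276 and 347 CPM in mutant libraries, against 346, 267 and 272 CPM in control libraries. Mutant 1 was far below the other 5 libraries, while mutant 3 and control 1 were nearly level at the top. The coefficient of variation of mt-Nd6 was 52.0% in mutant cells and 14.9% in control cells. The fitted log2 fold change of mt-Nd6, -0.29 ± 0.39 (SE; 95% limits -1.19 and 0.61), had an adjusted p of 0.857 in edgeR. Without mutant 1 it was 0.09, and without mutant 3 it was -0.65, so the direction rests on which mutant library is included.

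The balance of the strands followed the same libraries. Light-strand counts per 1000 heavy-strand counts were 5.57, 12.1 and 14.95 in mutant libraries, and 18.2, 11.5 and 12.5 in control libraries. The means were 10.9 ± 4.81 in mutant cells and 14.04 ± 3.602 in control cells (SD, n = 3 each), a difference within the spread of either group. Against its opposite-strand neighbour mt-Nd5, a core complex I subunit, the level of mt-Nd6 per kilobase was 0.282, 0.415 and 0.454 in mutant libraries and 0.552, 0.412 and 0.427 in control libraries. Mutant 1 was lowest and control 1 highest in this ratio too, and the other 4 libraries lay between 0.412 and 0.454.

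**Figure D4:**
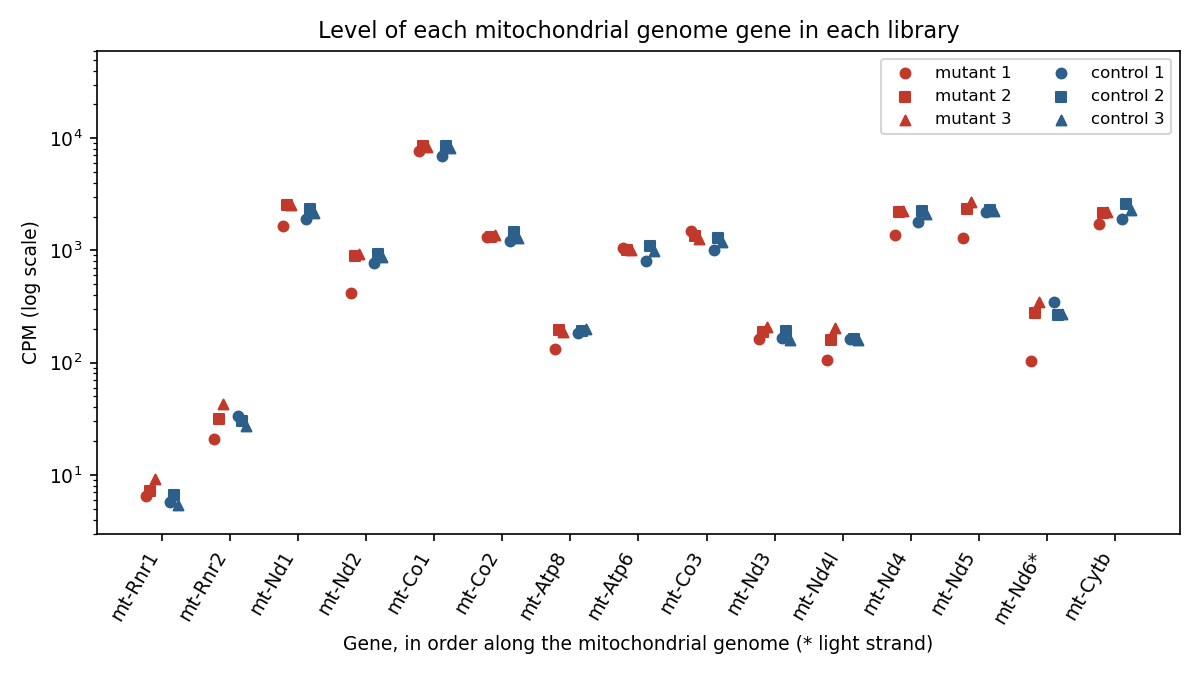
Level of each of the 15 genes in CPM (vertical axis, log scale) in each of the 6 libraries, in genome order (horizontal axis), with mutant libraries in red left of control libraries in blue. The ribosomal RNAs lie below 50 CPM and mt-Co1 between 6953 and 8487 CPM, and the groups overlap for every gene, with mutant 1 apart from the rest for mt-Nd2, mt-Nd5 and mt-Nd6.

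Complex IV, cytochrome c oxidase, has 3 mitochondrially encoded core subunits, and mt-Co1, its catalytic subunit, was the most abundant member. Levels of mt-Co1 were 7708, 8473 and 8311 CPM in mutant libraries, and 6953, 8487 and 8217 CPM in control libraries. Control 1 was lowest and the other 5 libraries lay close together. For mt-Co1 the log2 fold change was 0.05 ± 0.15 (SE; 95% limits -0.29 and 0.39) with an adjusted p of 0.931 in edgeR.
The core subunit gene mt-Co3 had 1500, 1348 and 1250 CPM in mutant libraries, against 999.7, 1297 and 1191 CPM in control libraries. It was the single member for which mutant 1 was the highest library. For mt-Co3 the log2 fold change was 0.23 ± 0.16 (SE; 95% limits -0.13 and 0.59), with an adjusted p of 0.743 in edgeR, and it was 0.17 without mutant 1. For mt-Co2, which encodes the subunit that receives electrons from cytochrome c, levels were 1311, 1306 and 1373 CPM in mutant libraries and 1204, 1443 and 1281 CPM in control libraries. Its log2 fold change was 0.02 as deposited and -0.065 with the counts of its nuclear copy added. It was also negative without mutant 3, at -0.006, and without control 1, at -0.0396, so its sign is not settled. The part of read division in it was not tested.

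Complex V has 2 mitochondrially encoded subunits, whose genes overlap. For mt-Atp8 the levels were 132.9, 195 and 188 CPM in mutant libraries, against 185, 190.2 and 199.7 CPM in control libraries. Mutant 1 was below the other 5, which lay close together. The log2 fold change of mt-Atp8 was -0.16 ± 0.17 (SE; 95% limits -0.55 and 0.24) with an adjusted p of 0.825 in edgeR, and it was 0.01 without mutant 1. For mt-Atp6, whose protein forms part of the proton channel, levels were 1045, 998 and 1014 CPM in mutant libraries and 799.6, 1086 and 988 CPM in control libraries, with a log2 fold change of 0.09.
Although both are read from 1 RNA, the genes differed in level per kilobase. The ratio of mt-Atp6 to mt-Atp8 per kilobase was 2.36, 1.53 and 1.61 in mutant libraries, and 1.29, 1.71 and 1.48 in control libraries. With the copy Gm10925 added to mt-Atp6 it was 4.69, 3.07 and 3.22 in mutant libraries and 2.58, 3.41 and 2.96 in control libraries. Mutant 1 was highest both ways. For the other shared RNA, the ratio of mt-Nd4 to mt-Nd4l per kilobase was 2.77, 2.93 and 2.39 in mutant libraries, and 2.35, 2.97 and 2.84 in control libraries as deposited. With copies added it was 1.63, 1.504 and 1.47 in mutant libraries, and 1.39, 1.55 and 1.503 in control libraries. Adding copies thus moved this ratio towards 1 and that of mt-Atp6 to mt-Atp8 away from it. No copy of mt-Atp8 was found to add, so the latter ratio rose through the counts of Gm10925 alone. Both mt-Atp8 and mt-Nd4l are short, at 204 and 297 bases, and the part of gene length in these ratios was not tested.

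Complex III has 1 mitochondrially encoded subunit, cytochrome b, the product of mt-Cytb. Its levels were 1717, 2167 and 2184 CPM in mutant libraries, against 1895, 2563 and 2267 CPM in control libraries. Mutant 1 was lowest and control 2 highest. The log2 fold change of mt-Cytb was -0.15 ± 0.17 (SE; 95% limits -0.55 and 0.25) with an adjusted p of 0.835 in edgeR, and it was the 1 member that stayed negative without mutant 1, at -0.03. As a share of the mitochondrial protein-coding counts, mt-Cytb took 9.30%, 9.40% and 9.30% in mutant libraries, against 9.78%, 10.9% and 10.3% in control libraries. This share was lower in every mutant library than in every control library, and it stayed so with the nuclear copies added, at 7.60% to 7.97% in mutant libraries and 8.24% to 9.20% in control libraries. The share was singled out after its values were seen, among those of 4 complexes, and a lack of overlap was seen for 14.1% of all genes tested.

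Complex I has 7 mitochondrially encoded subunits, and mutant 1 was the lowest library for all of their genes except mt-Nd3. As a share of the mitochondrial protein-coding counts, complex I genes took 27.4%, 37.2% and 39.0% in mutant libraries, and 37.9%, 35.9% and 36.0% in control libraries. The share of complex IV genes was 56.9%, 48.2% and 46.5% in mutant libraries and 47.3%, 47.7% and 48.4% in control libraries. The lowest complex I share and the highest complex IV share were thus both in mutant 1.
Among these genes, mt-Nd2 had 419.6, 888 and 933 CPM in mutant libraries, against 764, 936 and 872 CPM in control libraries. For mt-Nd5 the levels were 1278, 2337 and 2686 CPM in mutant libraries, against 2203, 2283 and 2242 CPM in control libraries. Control libraries of mt-Nd5 had a coefficient of variation of 1.79% and mutant libraries one of 34.9%. The log2 fold changes of these complex I genes were -0.20 for mt-Nd2 and -0.09 for mt-Nd5 with all libraries, and 0.10 and 0.18 without mutant 1.
The gene mt-Nd1, at the start of the messenger RNAs along the genome, had 1632, 2547 and 2556 CPM in mutant libraries and 1907, 2355 and 2134 CPM in control libraries. For mt-Nd4, levels were 1361, 2180 and 2241 CPM in mutant libraries and 1784, 2254 and 2107 CPM in control libraries. In both of these genes mutant 1 was lowest and control 1 next. The short gene mt-Nd4l had 106, 160 and 202 CPM in mutant libraries and 164, 163 and 160 CPM in control libraries, and mt-Nd3 had 161, 186 and 208 CPM in mutant libraries and 166, 190 and 161 CPM in control libraries. The mutant libraries of mt-Nd4l lay on both sides of its control libraries, whose coefficient of variation was 1.26%.

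Set against the control mean, mutant 1 differed from gene to gene more than any other library did. Its log2 difference from the control mean over the 13 protein-coding genes ran from -1.52 for mt-Nd6 to 0.38 for mt-Co3, with a median of -0.38. Mutant 2 ran from -0.09 to 0.26 and mutant 3 from -0.03 to 0.32, beside -0.25 to 0.24, -0.13 to 0.20 and -0.11 to 0.07 in control libraries 1 to 3. Control libraries enter their own mean, which brings them closer to it. Below the control mean in mutant 1, after mt-Nd6, came mt-Nd2 at -1.03, mt-Nd5 at -0.81, mt-Nd4l at -0.62, mt-Nd4 at -0.58, mt-Rnr2 at -0.54, mt-Atp8 at -0.53, mt-Nd1 at -0.38 and mt-Cytb at -0.37. In contrast mt-Nd3, mt-Co1 and mt-Co2 lay between -0.10 and 0.01, and mt-Rnr1, mt-Atp6 and mt-Co3 between 0.14 and 0.38.
Genes in the stretch from mt-Co1 to mt-Nd3 thus lay close to or above the control mean in mutant 1, with mt-Atp8 as the exception among them. The 5 messenger RNAs nearest the control mean or above it in mutant 1 (mt-Co1, mt-Co2, mt-Atp6, mt-Co3 and mt-Nd3) each have a near-identical nuclear copy in the nuclear genome, as do mt-Nd4 and mt-Nd4l, which were among the low genes. The 6 protein-coding genes without such a copy summed to 5282, 8409 and 8894 CPM in mutant libraries, against 7300, 8595 and 7987 CPM in control libraries. The 7 with a copy summed to 13190, 14650 and 14600 CPM in mutant libraries, against 12070, 14920 and 14104 CPM in control libraries. The share of copy counts in these pairs ran from 0.002 per count for mt-Co1 to 1.026 for mt-Nd3 in mutant 1, and the part of read division in its levels was not tested. Mutant 1 was the lowest library for 9 of the 15 members and the highest for 1. The lowest value was in control 1 for 4 members and in control 3 for 2. Mutant 3 was highest for 7 members, control 2 for 6 and control 3 for 1. In counts, mt-Co3 over mt-Nd2 was 3.57, 1.52 and 1.34 in mutant libraries, against 1.31, 1.39 and 1.37 in control libraries. That ratio, chosen after its values were seen, does not depend on library scaling, and it set mutant 1 apart from the other 5 libraries. Mutant 1 also had the highest sum of Malat1 and Neat1, and whether that is linked to its mitochondrial levels was not tested. Over members and nuclear genes together, mutant 1 also differed from mutants 2 and 3, with chi-square over degrees of freedom of 124 and 157. That value was 45.4 between mutants 2 and 3, and from 17 to 53.5 between control libraries.

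**Figure D5:**
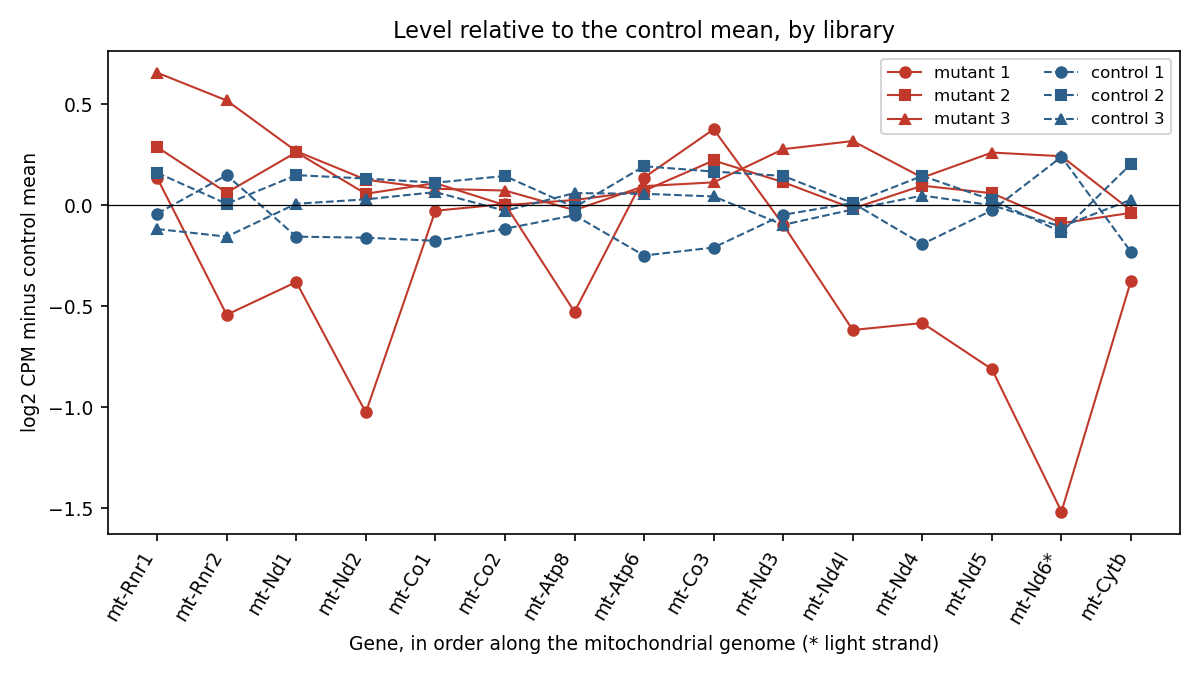
Log2 CPM of each gene minus the mean of the 3 control libraries (vertical axis), in genome order (horizontal axis), for mutant libraries as solid red lines and control libraries as dashed blue lines. Mutant 1 runs from -1.52 at mt-Nd6 to 0.38 at mt-Co3, while over the protein-coding genes the other libraries stay between -0.25 and 0.32.

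Per kilobase of gene length, the members spanned a wide range of levels. The highest was mt-Co1, with 5284 ± 261 CPM per kilobase in mutant cells and 5104 ± 530 in control cells (SD, n = 3 each). Next came mt-Nd1 with 2346 ± 555 CPM per kilobase in mutant cells and 2228 ± 234 in control cells, and then mt-Cytb with 1768 ± 231 in mutant cells and 1959 ± 293 in control cells. Close to it was mt-Co2, with 1944 ± 54.6 CPM per kilobase in mutant cells and 1914 ± 178 in control cells. Among control libraries the ranges of mt-Nd1 and mt-Cytb, and of mt-Cytb and mt-Co2, overlapped, and their order is not resolved.
The middle of the control order was held by mt-Nd4, mt-Co3, mt-Atp6 and mt-Nd5, with mean levels in control cells between 1230 and 1487 CPM per kilobase and ranges that overlapped between neighbours. Below them were mt-Atp8, with 844 ± 167 CPM per kilobase in mutant cells and 940 ± 36.3 in control cells, and mt-Nd2, with 720 ± 274 in mutant cells and 826 ± 83.6 in control cells, whose control ranges did not overlap with their neighbours'. The lowest messenger RNAs were mt-Nd6, with 466 ± 242 CPM per kilobase in mutant cells and 569 ± 84.9 in control cells, then mt-Nd4l and mt-Nd3, and each overlapped its neighbour in this order among control libraries.
The ribosomal RNAs came last after depletion, with 20.1 ± 7.12 CPM per kilobase for mt-Rnr2 in mutant cells and 19.1 ± 2.02 in control cells, and 7.98 ± 1.53 for mt-Rnr1 in mutant cells and 6.15 ± 0.63 in control cells. Adding the nuclear copies moved mt-Co2, mt-Co3 and mt-Atp6 to the places after mt-Co1. Their levels were then 3929 ± 114, 3480 ± 320 and 2986 ± 63.8 CPM per kilobase in mutant cells, and 4110 ± 278, 2955 ± 396 and 2808 ± 427 in control cells. With copies added, mt-Nd3 had 1055 ± 108 CPM per kilobase in mutant cells and 1036 ± 91.9 in control cells, and mt-Nd4l had 945 ± 287 in mutant cells and 1034 ± 40 in control cells. Their control means then stood above those of mt-Atp8, mt-Nd2 and mt-Nd6, for which no such copy was found among the annotated transcripts searched. The place of mt-Nd3 and mt-Nd4l among the lowest messenger RNAs thus changed when the copies were added.

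Nuclear genes that act on the mitochondrial genome and its RNA did not pass the test either, and 0% of all 18323 genes tested passed. Over all genes, 9684 were higher and 8638 lower in mutant cells by fitted log2 fold change. Of 10 tested genes for transcription of mitochondrial DNA, 0 passed in either direction, 5 had a higher and 5 a lower mean in mutant cells, and the median log2 fold change was -0.0044, beside 0.02 over all genes. Of these, Tfam, which packages mitochondrial DNA and activates its promoters, had 50.5, 52.4 and 58.9 CPM in mutant libraries, against 63.9, 63.7 and 62.9 CPM in control libraries. The groups did not overlap, but the log2 fold change of -0.24 ± 0.13 (SE) had an adjusted p of 0.713 in edgeR. Without overlap, 2 of these 10 genes were higher and 3 lower in mutant cells, beside 14.1% of all genes in either direction. The mitochondrial topoisomerase gene Top1mt averaged 9.17 ± 3.88 CPM in mutant cells and 13.9 ± 0.14 CPM in control cells (adjusted p = 0.698 in edgeR).
Of 10 tested genes for replication of mitochondrial DNA, 0 passed and the median was -0.10. Rrm2b, a ribonucleotide reductase subunit that supplies nucleotides for it, averaged 19.5 ± 2.64 CPM in mutant cells and 28.9 ± 2.34 CPM in control cells, with an adjusted p of 0.604 in edgeR. Polg2, the accessory subunit of the mitochondrial DNA polymerase, averaged 18.5 ± 8.10 CPM in mutant cells and 11.3 ± 0.73 CPM in control cells, with an adjusted p of 0.645 in edgeR.

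Genes for the processing and stability of mitochondrial RNA had medians a little below that of all genes. Of 24 tested genes for its cleavage and modification, 0 passed, beside 0% of all genes tested. In mutant cells 6 had a higher and 18 a lower mean, and the median was -0.07. Their summed levels were 564, 629 and 734 CPM in mutant libraries and 639, 733 and 654 CPM in control libraries, with mutant 1 lowest. Tfb1m, which methylates the small-subunit ribosomal RNA, had 5.62, 8.09 and 7.49 CPM in mutant libraries, against 11.1, 11.4 and 11.4 CPM in control libraries. Its groups did not overlap, as was so for 3 of the 24 genes, all lower, beside 14.1% of all genes tested. The log2 fold change of Tfb1m, -0.68 ± 0.21 (SE), had an adjusted p of 0.618 in edgeR. The ribosomal RNA methyltransferase gene Mrm1 averaged 8.80 ± 1.12 CPM in mutant cells and 11.4 ± 0.94 CPM in control cells (adjusted p = 0.705 in edgeR).
Of 21 tested genes for stability and decay of mitochondrial RNA, 0 passed, 6 had a higher and 15 a lower mean in mutant cells, and the median was -0.06. The groups overlapped for all 21, beside a lack of overlap for 14.1% of all genes tested. Summed, the 21 had 979, 1139 and 1272 CPM in mutant libraries and 1110, 1349 and 1148 CPM in control libraries, with mutant 1 lowest. Lrpprc, which binds and stabilises mitochondrial messenger RNAs, had 92.8, 141 and 165 CPM in mutant libraries, against 169, 192 and 163 CPM in control libraries. Mutant 1 was lowest, as it was for most members, and mutant 3 overlapped the controls. Its log2 fold change was -0.39 ± 0.22 (SE) with an adjusted p of 0.714 in edgeR. Fastkd1, of a family of mitochondrial RNA-binding proteins, averaged 16.7 ± 6.59 CPM in mutant cells and 23.7 ± 3.45 CPM in control cells (adjusted p = 0.730 in edgeR).

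Nuclear partners that join the mitochondrial subunits in the respiratory chain likewise had 0 of 19 tested genes passing, beside 0% of all genes. In mutant cells 5 means were higher and 14 lower, beside 9684 higher and 8638 lower over all genes tested. The median log2 fold change was -0.105. Summed, these genes had 2686, 3205 and 3269 CPM in mutant libraries and 3118.5, 4028 and 3180 CPM in control libraries, with mutant 1 lowest. Ndufv1, a catalytic core subunit of complex I, averaged 40.3 ± 5.01 CPM in mutant cells and 55.6 ± 5.78 CPM in control cells, with a log2 fold change of -0.47 ± 0.15 (SE) and an adjusted p of 0.644 in edgeR. The complex IV subunit gene Cox5a averaged 91.9 ± 6.47 CPM in mutant cells and 107.5 ± 17.3 CPM in control cells (adjusted p = 0.747 in edgeR).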

How the data were processed

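RNA of 6 libraries, 3 mutant and 3 control, was sequenced by the submitters. Per the labels' protocols, each library took 1 µg of total RNA through a kit that depletes ribosomal RNA. The authors deposited 1 table of estimated counts, not normalized, with a column for each library; 58.9% of the members' values and 57.8% of all values were whole. Per the submitters' processing notes, STAR 2.7.8a, Partek, GRCm39 and mm39 were used; their roles, the annotation and any use of strand are not stated in the sources at hand.

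Counts were rounded to whole numbers, which left 54 of 26469 rows at 0. The filterByExpr filter (minimum count 10) left 18323 genes with 99.92% of the counts. These were scaled by TMM and compared in edgeR 4.0.16 (R 4.3.3) by the robust quasi-likelihood test, mutant minus control, without covariates. Two-sided p-values were adjusted by Benjamini-Hochberg across the tested genes, and 0.05 was the threshold. CPM used TMM-scaled totals, log2 CPM a prior count of 2, and levels per kilobase the GENCODE M21 gene lengths, to which all 15 members matched by identifier. The 95% limits used the standard error with residual plus prior degrees of freedom. No coordinates are given because that annotation is of GRCm38. Near-identical copies were found by aligning member transcripts to all other transcripts. The common biological coefficient of variation was 0.297. Libraries of a group differed beyond sampling noise (chi-square over degrees of freedom between 17 and 157) and were not merged as repeats of 1 library; this does not show that they came from separate animals. The test was checked on simulated data.

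Members, gene lists, tests and alternatives were chosen with earlier results of these data known. Statistics are given in full for the ribosomal RNAs, mt-Nd6, the most abundant messenger RNA and the 3 messenger RNAs with the smallest p. Other members are given by their values. The 2 genes of smallest p in each nuclear list are given by levels and adjusted p, some with a log2 fold change. Alternatives were DESeq2 1.42.0, limma-voom (limma 3.58.1), other scalings, filters and thresholds, unrounded counts, the replicate number as a block and leaving out each library. A marker gene among those examined is not reported here.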

Additional observations from a re-analysis of the deposited data

How the results depend on the processing

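Across 17 alternative settings 0 of the 15 mitochondrial genes passed the test in any. The stricter threshold of 0.01 among them was applied to the fit reported, so it could not add a gene. The count of all genes passing was 0 except in DESeq2, which called 99. The sign of mt-Co2, 0.02 in the fit reported, was -0.0004 in DESeq2 and -0.065 with the nuclear copies added, an alternative chosen after seeing the data. Log2 fold changes crossed 0 when 1 library was left out at a time: mt-Rnr2 from -0.22 to 0.32, mt-Nd1 from -0.0337 to 0.27, mt-Nd2 from -0.40 to 0.10, mt-Co1 from -0.0379 to 0.10, mt-Co2 from -0.0396 to 0.10, mt-Atp8 from -0.24 to 0.0125, mt-Atp6 from -0.0303 to 0.19, mt-Nd4l from -0.29 to 0.17, mt-Nd4 from -0.22 to 0.12, mt-Nd5 from -0.32 to 0.18 and mt-Nd6 from -0.65 to 0.0894. Why they moved was not tested beyond the libraries left out. The sources used here do not say whether replicate numbers pair the samples. Correlations of same-numbered libraries ran from -0.067 to -0.028, and with 3 libraries a group these cannot exclude a pairing. With the replicate block the mean log2 fold change was -0.07 for protein-coding, 0.19 for ribosomal RNA, -0.003 for heavy-strand and -0.43 for light-strand genes. In that fit 0 genes passed. Alternatives for transfer RNA genes were not run, because no such row was matched. With 3 libraries a group, the 95% limits of mt-Nd6 were -1.19 and 0.61.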
